A study of Mus musculus with 14 samples.

Results

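Genes for receptors and binding proteins that detect bacteria were followed through the acetylation of histone H3 at lysine 27 (H3K27ac), a mark of active promoters and enhancers, and through binding of the transcription factor ONECUT2. The set holds 10 genes, given by name: Tlr1, Tlr2, Tlr3, Tlr4, Tlr5, Nod1, Nod2, Pglyrp1, Pglyrp2 and Cd14. An H3K27ac region or ONECUT2 site belonged to the set when the nearest protein-coding gene span within 100 kb, on the mouse mm10 build, was 1 of these genes. By this rule 29 of 55050 H3K27ac regions and 4 of 7268 listed ONECUT2 sites were members, and each gene had at least 1 region. A region may act on a gene other than the nearest.

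The material was mouse small intestinal organoids, cultures of gut epithelium grown from stem cells, all from the line of 1 female Lgr5GFPDTR/+ mouse, an allele that both arms carried. The control arm grew in ENR medium, which holds EGF, Noggin and R-spondin 1, and gave 3 H3K27ac and 3 ONECUT2 libraries. The RANKL arm gave the same numbers and first had CHIR99021 (3 µM, activates Wnt signalling) together with the histone deacetylase inhibitor valproic acid (1.5 mM) over 3 days, then ENR alone over 1 day, and then 100 ng/mL RANKL over 6 days, the cytokine that drives formation of microfold (M) cells. The comparison is therefore of the whole protocol with ENR medium, and the parts of RANKL, CHIR99021 and valproic acid in any difference cannot be told apart. Libraries of both arms were labelled day 6. Replicates were 3 differentiation experiments, so p-values measure the spread between experiments on 1 line. The depth of the H3K27ac libraries over all regions was 5434172 to 9160267 reads for the controls and 2745451 to 3902301 reads for RANKL.

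Toll-like receptors (TLRs) are membrane receptors for microbial molecules, and most signal through the adaptor MYD88 to the transcription factor NF-kB. NOD1 and NOD2 sense fragments of peptidoglycan, the polymer of the bacterial cell wall, inside the cell and signal through the kinase RIPK2, while peptidoglycan recognition proteins bind or cleave peptidoglycan outside the cell. In the gut these proteins face a dense microbiota, and M cells in addition carry luminal bacteria to the lymphoid tissue beneath.

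The stretches of 250 bases before the start sites show what the letters around these genes hold. They came from RefSeq on GRCm38.p6, the assembly of mm10, whose table had entries for 8 of the 10 genes, all but Tlr4 and Cd14. Shown are the gene with the largest acetylation change, Pglyrp2, and the 3 genes whose window matched the binding consensus of NF-kB. Capitals mark matches on either strand to 4 searched motifs: that consensus, ATTGAT (the core bound by ONECUT factors), GAGGAAG (a form bound by PU.1 and SPIB) and TGANTCA (the AP-1 element), and the reverse complement of GAGGAAG appears as CTTCCTC. The sequences lie at chr17:32420976-32421225, minus strand (Pglyrp2), chr3:83841609-83841858, minus strand (Tlr2), chr8:45410381-45410630, minus strand (Tlr3), and chr7:18884440-18884689, plus strand (Pglyrp1).
Pglyrp2: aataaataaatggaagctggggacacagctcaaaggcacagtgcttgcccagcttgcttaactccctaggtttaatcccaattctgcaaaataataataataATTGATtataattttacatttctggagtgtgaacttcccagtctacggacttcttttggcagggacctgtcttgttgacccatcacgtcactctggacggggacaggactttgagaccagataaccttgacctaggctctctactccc
Tlr2: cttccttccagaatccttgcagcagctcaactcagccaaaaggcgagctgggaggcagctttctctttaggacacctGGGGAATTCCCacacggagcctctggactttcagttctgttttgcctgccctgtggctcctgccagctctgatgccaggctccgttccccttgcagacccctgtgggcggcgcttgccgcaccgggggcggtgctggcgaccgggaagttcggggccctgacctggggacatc
Tlr3: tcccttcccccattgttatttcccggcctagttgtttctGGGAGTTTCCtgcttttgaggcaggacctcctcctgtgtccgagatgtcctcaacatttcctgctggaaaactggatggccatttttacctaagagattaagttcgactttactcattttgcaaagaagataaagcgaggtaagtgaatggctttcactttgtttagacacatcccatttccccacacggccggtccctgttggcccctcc
Pglyrp1: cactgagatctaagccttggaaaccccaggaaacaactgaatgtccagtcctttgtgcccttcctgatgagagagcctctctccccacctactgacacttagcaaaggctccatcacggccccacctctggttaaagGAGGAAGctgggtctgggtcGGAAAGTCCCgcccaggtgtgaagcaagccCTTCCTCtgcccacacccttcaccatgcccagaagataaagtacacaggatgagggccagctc
The NF-kB consensus stood 173 to 163 bases before the Tlr2 start as a pair of overlapping matches, 211 to 202 bases before the Tlr3 start and 93 to 84 bases before the Pglyrp1 start, and 3.90% of 32851 windows of this length held it. Pglyrp1 also held GAGGAAG 113 to 107 and 63 to 57 bases before its start, and a window of Tlr1 held it 23 to 17 bases before its start, against 10.6% of all windows. ATTGAT was found in the window of Pglyrp2, 148 to 143 bases before the start, against 6.72% of windows. TGANTCA, held by 6.75% of windows, had no match in the 8 genes, and the windows of Nod1, Nod2 and Tlr5 matched none of the 4. The motifs were chosen after the sequences were at hand, and a match is a description of the letters, not a site.

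H3K27ac rose at 5 of the 29 regions and fell at 8, by edgeR's quasi-likelihood test with Benjamini-Hochberg adjustment over all regions, and 16 did not pass. Over all 54765 regions tested, 14.8% were called higher and 21.0% lower, so the shares of the set, 17.2% and 27.6%, lay near the background. The median log2 fold of RANKL over control was 0.01 over the set and 0.06 over all regions. With scaling by library size only, 5 regions were higher and 5 lower, and with a trend of fold on signal removed, 5 were higher and 4 lower. The RANKL libraries all lay above the controls at 7 regions (20.6% of all regions) and all below at 7 (24.2%). Of the regions that overlap a start site, 1 of 6 rose and 3 fell, against 6.01% and 51.7% of all such regions. Of the 23 regions over no listed start site, 4 rose and 5 fell, against 16.8% and 14.3% of all such regions, and these include the regions of Tlr4 and Cd14, for which no start site was listed. Both of the largest gains were near Pglyrp2, and the largest loss was at Tlr2. All values are of whole cultures, in which fewer cells carrying a mark and less of the mark per cell cannot be told apart.

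**Figure D1:**
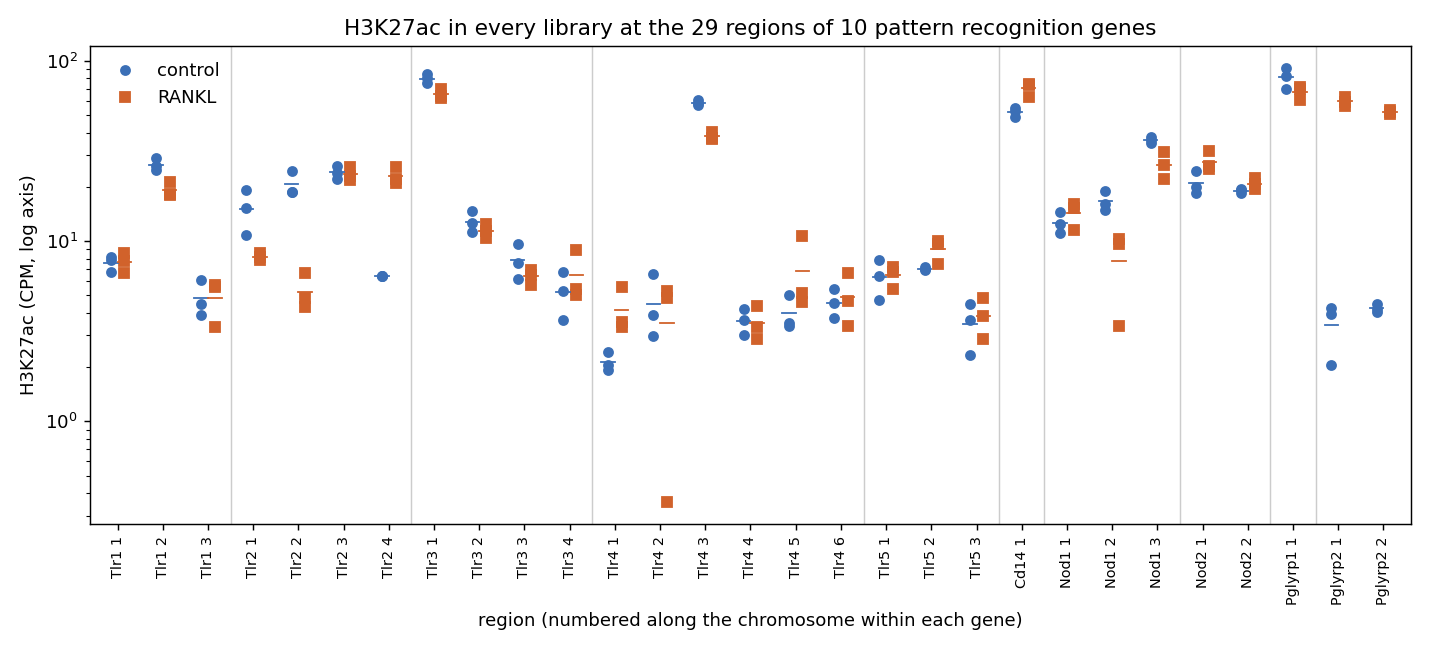
H3K27ac level (CPM, log axis) in each of the 3 control and 3 RANKL libraries at the 29 regions, grouped by gene, with short bars at the group means. The groups stand far apart at both regions of Pglyrp2, where controls lie between 2.06 and 4.50 and RANKL libraries between 50.9 and 63.2.

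Summed over all regions of a gene, signal rose at 3 of the 10 genes, Pglyrp2, Cd14 and Nod2, and fell at Nod1. The background over 15895 genes was 25.0% higher and 26.9% lower. The median log2 fold was -0.05 over the 10 genes and 0.01 over all. Sums per gene were scaled separately from regions, so a gene with 1 region can have another fold, and another call, at each level.

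Pglyrp2 encodes a secreted amidase that cuts peptidoglycan between its sugar and its peptide. Its 2 regions lie upstream of the listed start, at chr17:32424441-32426441, 4.47 kb from it and 0.222 kb outside the gene span, and at chr17:32433257-32435257, 13.3 kb from the start. The listed start, at 32420975, and the 250 bases shown above lie inside the span. The upstream end of the span is at 32424219, the end nearest to both regions. The nearer region had 4.25, 3.96 and 2.06 CPM (read counts scaled to library size) in control replicates 1 to 3 and 63.2, 55.9 and 59.3 in RANKL replicates 1 to 3. The farther one had 4.06, 4.18 and 4.50 CPM in the controls and 51.8, 53.4 and 50.9 with RANKL. At both, each RANKL library was far above each control. Log2 folds were 4.07 ± 0.17 (SE, adjusted p = 2.18e-87) and 3.61 ± 0.17 (7.33e-73), which are 16.8-fold and 12.2-fold (n = 3 and 3, edgeR quasi-likelihood). In the controls these regions ranked at percentiles 15.2 and 25.6 of all regions by mean CPM, and with RANKL at 95.2 and 93.3. The folds of the 2 regions were not called different from each other in edgeR's test of a region against its gene (adjusted p = 0.474 and 0.442). As a gene, Pglyrp2 had 7.69 ± 1.01 CPM in the controls and 124 ± 3.11 with RANKL (SD, n = 3), a rise of 15.9-fold (log2 3.99 ± 0.12, adjusted p = 9.99e-44). By p-value, not by fold, it had rank 5 of 15895 genes. The next nearest genes to the 2 regions, Rasal3 and Cyp4f39, lay 20.9 and 17.4 kb away.

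The genes whose profile over the 6 libraries was most like that of Pglyrp2, by Euclidean distance between log2 CPM centred on each gene's mean, were F10 (distance 0.314), which encodes coagulation factor X, Fam209 (0.323), the connexin gene Gjb5 (0.521), Rec114 (0.597) and Fam177b (0.598). Their log2 folds were 3.87, 3.95, 3.68, 3.79 and 3.78. These profiles come from the same 6 libraries, and each gene rose in all 3 RANKL libraries above all 3 controls.

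Pglyrp1, whose product kills bacteria by binding their peptidoglycan, had 1 region, over its start site, and the opposite, far smaller direction. CPM was 91.6, 69.8 and 82.3 in the controls and 71.8, 70.0 and 60.8 with RANKL. The groups overlapped, since control replicate 2 lay below 2 RANKL libraries. The log2 fold was -0.26 ± 0.11 with an adjusted p of 0.0488, just under the threshold of 0.05, and summed as a gene it was -0.11, not called (adjusted p = 0.323, edgeR quasi-likelihood). The call at the region was lost in 9 of 12 alternatives: without control replicate 1 (adjusted p = 0.334), control replicate 3 (0.123), RANKL replicate 2 (0.0701) or RANKL replicate 3 (0.278), with the experiment number as a block (0.0869), with DESeq2 (0.107), and with each of 3 other scalings (0.171 for library size only, 0.0743 for median-ratio factors, 0.800 with the signal trend removed).

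**Figure D2:**
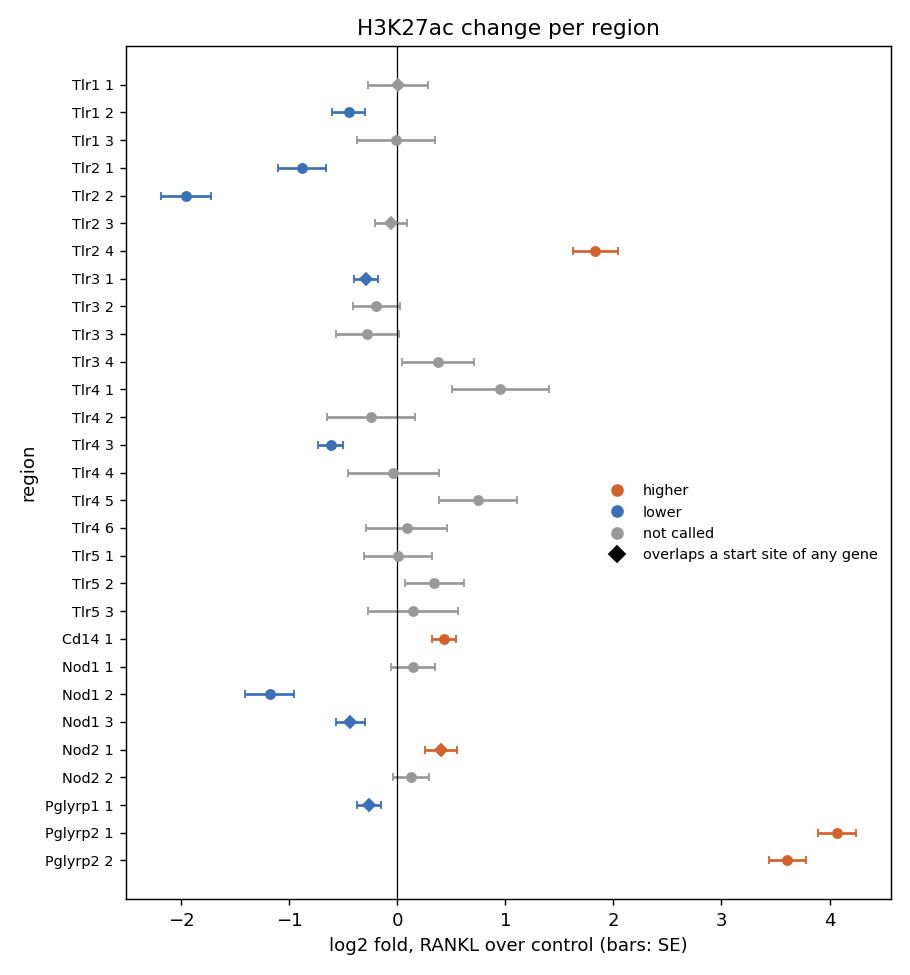
Log2 fold of H3K27ac (RANKL over control, bars are ± 1 SE) at each of the 29 regions by gene, coloured by the call, with diamonds for regions over a start site of any gene. Pglyrp2 has both regions near 4, and Tlr2 spans from -1.96 to 1.83.

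The cytosolic sensors moved in opposite directions. NOD1 senses a peptidoglycan fragment found mainly in Gram-negative bacteria, and its gene lost H3K27ac at 2 of 3 regions. At chr6:54966745-54968745, inside the gene span 3.92 kb from the nearest start site, CPM was 14.9, 19.0 and 16.1 in the controls and 9.64, 10.3 and 3.38 with RANKL. At the start site, chr6:54971639-54973639, it was 34.8, 36.5 and 37.7 against 22.1, 26.3 and 31.1. The groups did not overlap at either region. Log2 folds were -1.18 ± 0.22 (adjusted p = 1.75e-06) and -0.43 ± 0.13 (0.00477), and the third region, farther inside the gene, was not called at 0.15. Summed, Nod1 went from 65.8 to 54.0 CPM, a log2 fold of -0.30 ± 0.10 (adjusted p = 0.00991). Regions were also set against the pooled fold of their gene's regions, which is not the fold of the sum. The inner region fell more than this (difference -0.75, adjusted p = 0.00764, edgeR), and the region farthest from the start lay above it (0.58, 0.0261). Of all regions 11.9% were called below and 13.4% above their gene in this way.

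Single libraries weighed on these Nod1 values. Without RANKL replicate 3, the lowest at the inner region, the log2 fold there was -0.76 and kept its call (adjusted p = 0.00609, edgeR), while the difference of that region from its gene had an adjusted p of 0.329, and without control replicate 2 it was 0.0674. The difference of the farthest region was lost without control replicate 3 (0.103), RANKL replicate 1 (0.0966) or RANKL replicate 2 (0.0895). The start-site call was lost after leaving out RANKL replicate 1 (0.0602) or removing the signal trend (0.506), and the gene's call without control replicate 2 (0.0772) and with the trend removed (0.137).

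NOD2 recognises muramyl dipeptide, a peptidoglycan motif common to nearly all bacteria. At its start site, chr8:88646284-88648284, CPM was 24.3, 20.0 and 18.4 in the controls and 25.0, 31.7 and 26.0 with RANKL. The groups did not overlap, though control replicate 1 and RANKL replicate 1 were close. The log2 fold was 0.41 ± 0.15 (adjusted p = 0.0213), a second region 19.3 kb inside the gene was not called at 0.12, and the gene as a whole rose by a log2 fold of 0.43 ± 0.11 (7.32e-04, edgeR quasi-likelihood), from 40.1 to 53.8 CPM. With the signal trend removed the start-site fold was 0.65 (2.14e-04). Its call was lost without control replicate 2 (adjusted p = 0.0890), control replicate 3 (0.121) or RANKL replicate 2 (0.167) and with DESeq2 (0.0918).

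TLR2 detects bacterial lipopeptides as a dimer with TLR1 or TLR6, and its gene held regions that rose, fell and were not called. At its far gene end, chr3:83835463-83837463, CPM was 24.5, 18.7 and 18.8 in the controls and 4.28, 6.64 and 4.82 with RANKL. Beyond that end, at chr3:83827312-83829312, it was 10.8, 15.3 and 19.1 against 8.57, 7.85 and 8.20. Upstream, at chr3:83862140-83864140, 21.5 kb from the start, it was 6.38 in each control and 25.7, 22.0 and 21.0 with RANKL. The groups did not overlap at any of these regions. Log2 folds were -1.96 ± 0.23 (adjusted p = 2.42e-15), -0.88 ± 0.22 (4.90e-04) and 1.83 ± 0.21 (4.57e-16). The start-site region between them, with 22.0, 26.1 and 24.0 CPM in the controls and 25.7, 22.9 and 21.7 with RANKL, overlapped between groups at -0.06 ± 0.15 and was not called (0.805, edgeR quasi-likelihood).

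Summed over these 4 regions, Tlr2 had 66.3 CPM in the controls and 66.5 with RANKL, a log2 fold of -0.01 ± 0.09 (adjusted p = 0.965). The sum was not called although 3 of the 4 regions were, in both directions. The upstream region held 10.0, 9.60 and 9.34% of the reads of the locus in the controls and 40.0, 37.1 and 37.7% with RANKL. The region at the far gene end held 38.5, 28.1 and 27.5% and then 6.67, 11.2 and 8.66%. For the upstream region the 95% Wilson intervals, which cover counting error only, reached up to 13.7% in the controls and down to 30.6% with RANKL. Each region was set against the pooled fold of the gene's regions, which is not the fold of the sum. The far-end region differed from it by -1.81 (adjusted p = 1.60e-12), the region beyond that end by -0.74 (0.00758) and the upstream region by 1.98 (1.86e-17, edgeR). The middle value was lost without control replicate 3 (0.105). A gained and a lost region at 1 gene is not rare: of 1240 genes with exactly 4 regions tested, 18.0% had both. The sum depends on which regions count, since without those farther than 10 kb from the gene, the upstream one among them, Tlr2 fell by 0.52 on the log2 scale (adjusted p = 3.30e-05, edgeR). The next nearest gene to the upstream region, Tmem131l, was 34.1 kb away.

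**Figure D3:**
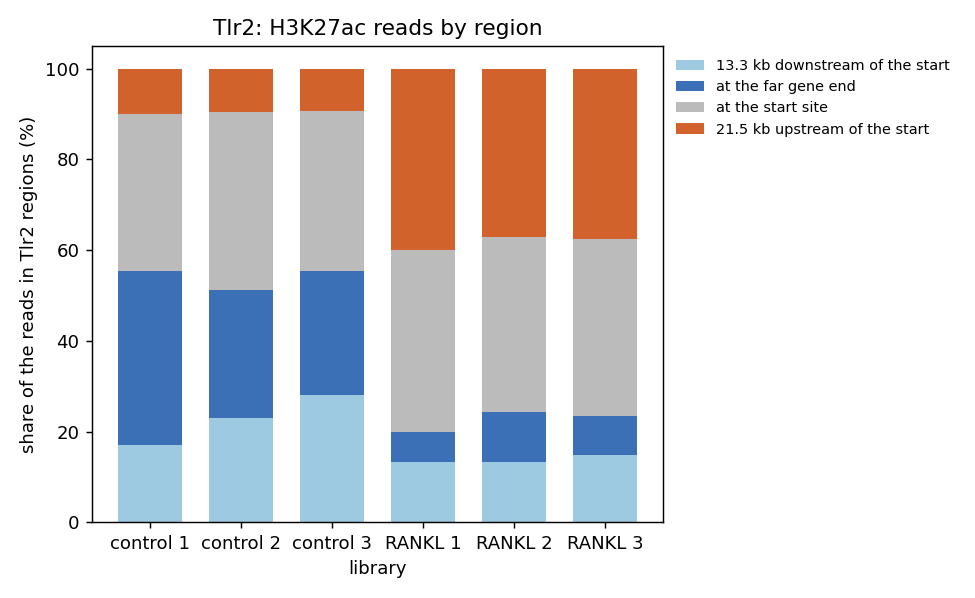
Share of the H3K27ac reads of Tlr2 (percent, stacked bars) that falls in each of its 4 regions, for the 6 libraries. The upstream region takes 9.34 to 10.0% in the controls and 37.1 to 40.0% with RANKL, while the far gene end shrinks from 27.5% or more to 11.2% or less.

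TLR1, the partner of TLR2 for triacylated lipopeptides, had 3 regions and 1 call. At chr5:64916827-64918827, 5.85 kb outside the gene span, CPM was 28.8, 24.9 and 26.1 in the controls and 18.2, 18.1 and 21.2 with RANKL. The groups did not overlap, and the log2 fold was -0.45 ± 0.15 (adjusted p = 0.0129). This call was lost without control replicate 1 (0.0677), with DESeq2 (0.0549), with library size only (0.0612) and with the signal trend removed (0.324). The other 2 regions, 1 of them 44.2 kb away at the start site of another gene, had log2 folds of 0.01 and -0.01, and the gene had -0.14, not called (0.347, edgeR quasi-likelihood).

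TLR4 detects lipopolysaccharide of Gram-negative bacteria, which CD14 hands to it. Its strongest region, chr4:66827880-66829880 at 1 end of the gene span, had 58.2, 56.9 and 60.4 CPM in the controls and 37.5, 40.2 and 36.7 with RANKL. All RANKL libraries were lower, with a log2 fold of -0.62 ± 0.12 (adjusted p = 2.13e-06), which was -0.32 with the signal trend removed (0.00688). The other 5 regions, from 9.92 to 76.2 kb outside the gene span, were weak, with mean CPM between 2.14 and 6.81 in either arm, and none was called. A region 20.7 kb away had 1.93, 2.42 and 2.06 CPM in the controls and 3.57, 3.32 and 5.55 with RANKL, without overlap, at 0.95 ± 0.45 (0.0855). Against the pooled fold of the gene's regions this region lay above by 1.29 (adjusted p = 0.0184), and a region 61.0 kb away by 1.09 (0.0142), on 10 to 32 reads per library. The first was lost without control replicate 1 (0.0604), control replicate 3 (0.0566) or RANKL replicate 3 (0.197), and the second without control replicate 2 (0.0584), control replicate 3 (0.0602) or RANKL replicate 1 (0.324). Without RANKL replicate 3 the second was itself called higher (0.98, 0.0419). Summed, Tlr4 had 77.4 CPM in the controls and 67.8 with RANKL, a log2 fold of -0.19 ± 0.09, not called (0.0734, edgeR quasi-likelihood). With library size only it was called lower (-0.22, 0.0322), as with regions within 10 kb (-0.40, 8.53e-04) or overlapping the gene (-0.40, 0.00101).

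Cd14, the gene for the lipopolysaccharide-binding partner of TLR4, had the opposite direction to Tlr4. Its only region, chr18:36725352-36727352, overlaps the gene and had 48.9, 52.4 and 54.6 CPM in the controls and 73.5, 74.6 and 62.9 with RANKL. The groups did not overlap. The log2 fold was 0.43 ± 0.11 (adjusted p = 6.56e-04, edgeR quasi-likelihood) at the region and 0.58 ± 0.10 (4.40e-07) at the gene level. With the signal trend removed the region had 0.68 (1.66e-11).

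TLR5, the receptor for flagellin, had 3 weak regions, none of them called (log2 folds 0.01, 0.34 and 0.15). The one inside the gene, chr1:182956556-182958556, had 6.38, 7.81 and 4.69 CPM in the controls and 7.14, 5.43 and 6.75 with RANKL, which overlap. The gene had 16.9 CPM in the controls and 21.5 with RANKL, without overlap, at a log2 fold of 0.33 ± 0.18 that was not called (adjusted p = 0.114, edgeR quasi-likelihood).

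TLR3 senses double-stranded RNA in endosomes, so it is a sensor of viruses more than of bacteria. Its start-site region, chr8:45410149-45412149, had 84.1, 74.9 and 80.1 CPM in the controls and 70.0, 63.7 and 62.0 with RANKL. All RANKL libraries were lower, and the log2 fold was -0.29 ± 0.11 (adjusted p = 0.0273). The call was lost in 7 of 12 alternatives: without control replicate 1 (0.123), control replicate 3 (0.0721), RANKL replicate 2 (0.0898) or RANKL replicate 3 (0.121), with the experiment number as a block (0.0507), with library size only (0.0943) and with the signal trend removed (0.605). The other 3 regions were not called, and the gene had -0.09 (0.366, edgeR quasi-likelihood).

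**Figure D4:**
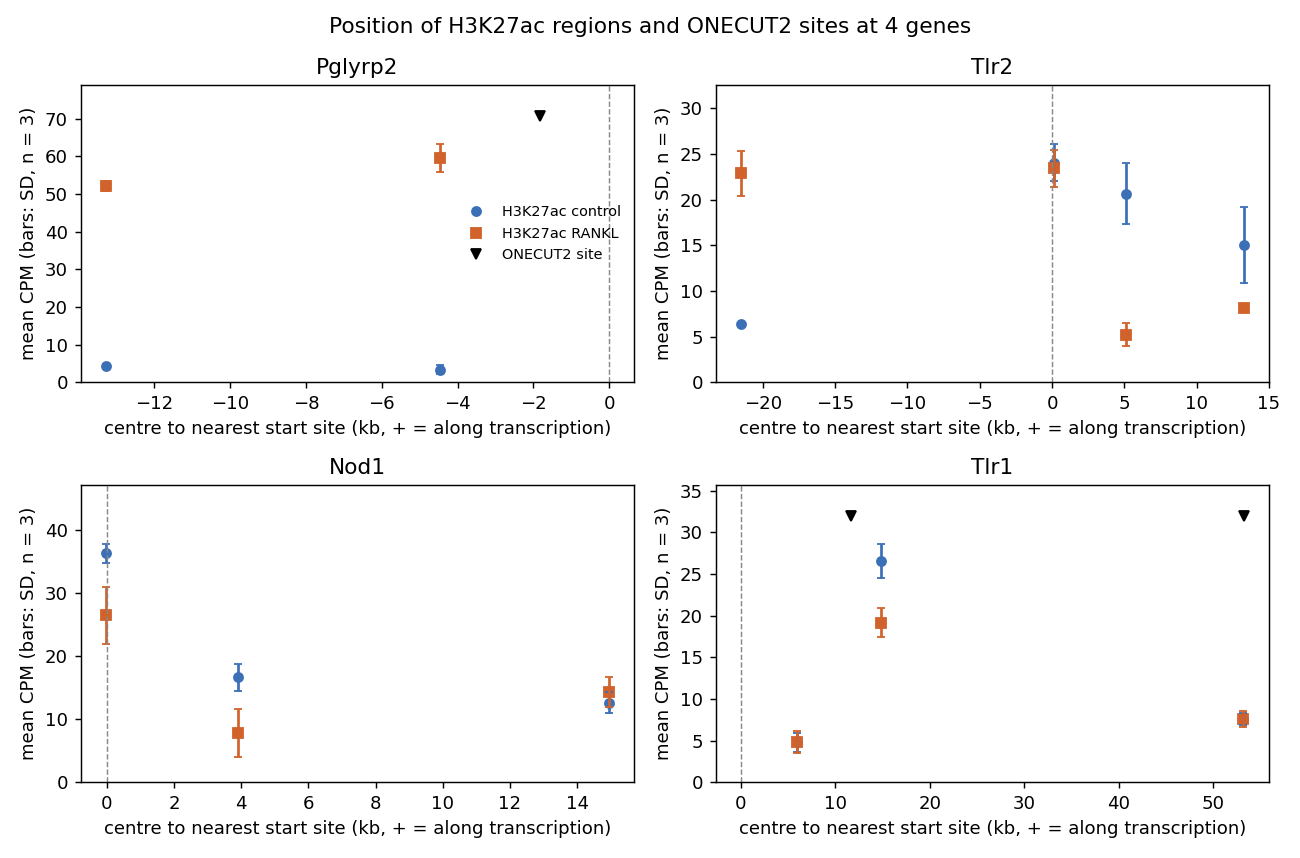
Mean H3K27ac level (CPM ± SD, n = 3) of the regions of Pglyrp2, Tlr2, Nod1 and Tlr1 against the distance of the region's centre from the nearest start site in kb (negative is upstream), in control and RANKL libraries. Triangles mark ONECUT2 sites at an arbitrary height. Both regions of Pglyrp2 rise from under 5 CPM to over 50, and the Tlr2 region 21.5 kb upstream rises, the one at its start overlaps between arms, and the 2 farther along fall.

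By the strongest region of each gene, the controls ran from Pglyrp1 (mean 81.2 CPM, libraries 69.8 to 91.6) and Tlr3 (79.7 ± 4.58, SD), which overlapped, through Tlr4 (58.5), Cd14 (51.9) and Nod1 (36.3) to Tlr1 (26.6), Tlr2 (24.0) and Nod2 (20.9), of which neighbours overlapped. Tlr5 (7.04) and Pglyrp2 (4.25) came last. With RANKL the order began with Cd14 (70.4 ± 6.44), Pglyrp1 (67.5), Tlr3 (65.2) and Pglyrp2 (59.5 ± 3.67), of which neighbours overlapped. Tlr4 (38.1) followed, then Nod2 (27.6), Nod1 (26.5) and Tlr2 (23.5), whose neighbours overlapped, then Tlr1 (19.2) and Tlr5 (9.04). Regions all span 2000 bp, so these levels compare equal lengths, and the strongest region of Pglyrp2 was the farther one in the controls and the nearer one with RANKL.

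ONECUT2, a homeodomain factor with a CUT domain, had 4 listed sites at 3 of the 10 genes in the authors' deposited table, against 27.1% of all genes with at least 1. All 4 had more signal with RANKL in the authors' deposited table, as did 7261 of its 7268 sites (93.9% of the sites the table's ranks imply were tested). At Pglyrp2, chr17:32422596-32422996, inside the gene span and 1.82 kb upstream of the listed start, the authors' deposited table gives means of 69.4 normalised reads with RANKL and 5.43 in the controls, a log2 fold of 3.49 (11.2-fold, FDR 2.75e-15), at percentile 97.0 of its folds. This site lay in no H3K27ac region and 1.45 kb from the nearer of the gained ones. At Tlr1 the authors' deposited table lists chr5:64920868-64921268, with 60.7 and 22.2 reads (log2 fold 1.42, FDR 1.12e-05), and chr5:64879227-64879627, with 23.0 and 6.64 reads (1.67, 3.85e-04). At Tlr3 it lists chr8:45410880-45411280, 0.700 kb upstream of the start, with 33.5 and 13.2 reads (1.29, 6.68e-04 in the authors' deposited table). Over all sites in the authors' deposited table the median log2 fold was 1.86. Of the 4 sites, 2 lay inside an H3K27ac region, against 40.6% of all sites: that at Tlr3 in the start-site region with a log2 fold of -0.29, and that at Tlr1 in the region with 0.01. More ONECUT2 signal in the authors' deposited table stood beside called gains of H3K27ac at Pglyrp2 only. At Tlr1 the site at chr5:64920868-64921268 lay in no H3K27ac region and 2.04 kb from the region called lower (log2 fold -0.45). The region that holds the Tlr3 site was also called lower. These calls at Tlr1 and Tlr3 were lost in some alternatives. The table gives no values per library, so its means carry no error here, and its deposited folds are not the exact ratios of those means.

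Other genes of the pathway were taken from 5 lists with 90 entries, of which 78 could be tested by gene sums. H3K27ac rose at 19 and fell at 15, which is 24.4% and 19.2% against 25.0% and 26.9% of all genes, with a median log2 fold of 0.08. Among other microbial receptors 2 of 20 rose and 3 fell. Pglyrp3, a further peptidoglycan recognition gene, had 24.0 ± 3.66 CPM in the controls and 65.6 ± 5.63 with RANKL (SD, n = 3), at a log2 fold of 1.44 ± 0.12 (adjusted p = 6.12e-18, edgeR quasi-likelihood), while Pglyrp4 was nearest to no region. Tlr6, which pairs with TLR2, fell by 0.62 ± 0.18 on the log2 scale (0.00257), with overlapping groups, and Tlr9, for bacterial DNA, had 0.38, not called (0.102).

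Co-receptors and delivery proteins had 3 of 12 higher and 2 lower, and Ly96, for the MD-2 subunit that holds lipopolysaccharide on TLR4, had 0.21, not called (adjusted p = 0.112). Of adaptors and kinases 3 of 19 rose and 7 fell. Ripk2, the kinase downstream of both NOD receptors, rose by 0.58 ± 0.11 (7.35e-06) and Birc3, a ubiquitin ligase of this pathway, by 1.14 ± 0.07 (4.14e-23). Ticam1, the adaptor of TLR3, fell by 0.47 ± 0.09 on the log2 scale (6.27e-06, edgeR quasi-likelihood), and Myd88 was nearest to no region. Inhibitors had 5 of 10 higher and 2 lower, with Nfkbia, the NF-kB inhibitor that NF-kB itself induces, at 1.27 ± 0.05 (3.01e-35).

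Of epithelial effectors 6 of 17 rose and 1 fell. Those that rose by at least 1 on the log2 scale were the chemokine genes Ccl20 (1.19 ± 0.08) and Cxcl5 (1.07 ± 0.13), the nitric oxide synthase gene Nos2 (1.24 ± 0.14) and the NADPH oxidase gene Nox1 (1.53 ± 0.28). Duox2, which makes hydrogen peroxide at the epithelial surface, was the one that fell (-1.46 ± 0.30, adjusted p = 2.54e-05, edgeR quasi-likelihood).

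**Figure D5:**
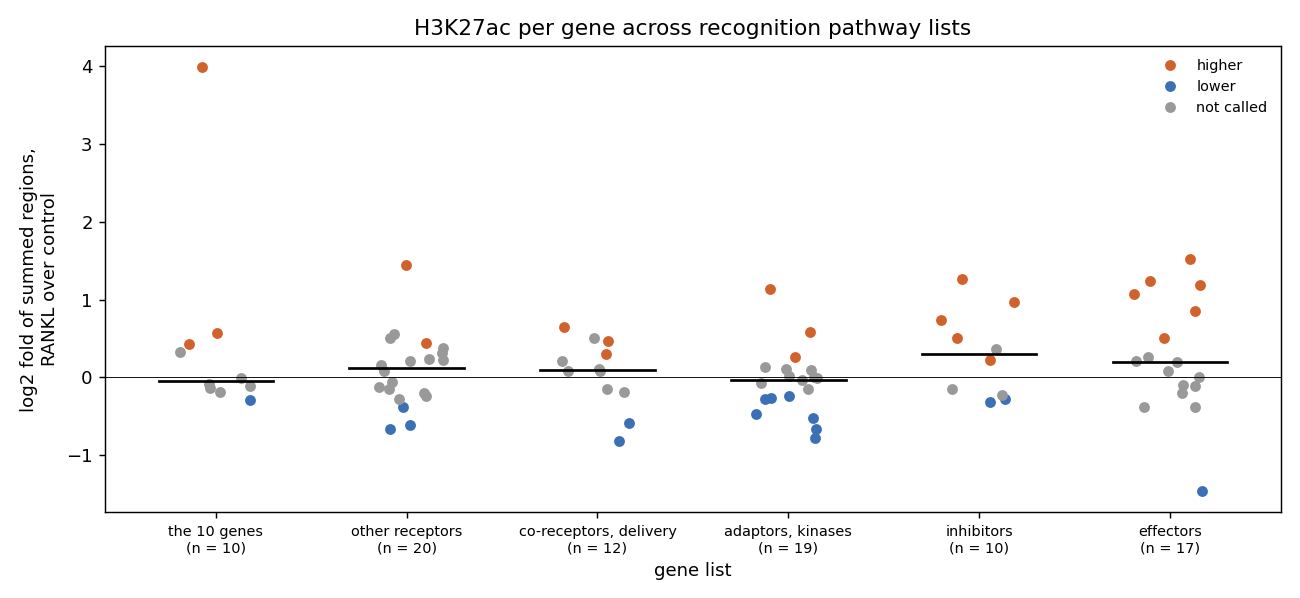
Log2 fold of H3K27ac (RANKL over control, summed per gene) for each tested gene of the 10 followed here and of the 5 pathway lists, with a bar at each list's median. Pglyrp2 stands at 3.99, and the medians lie between -0.05 and 0.30.

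Cell type markers were read in the same way, against 25.0% of all genes higher and 26.9% lower. Of 15 M cell markers tested 12 rose, none fell, and their summed level went from between 636 and 651 to between 1297 and 1375 CPM, with Pglyrp1 itself on that list and not called. All 12 epithelial markers had regions, 4 higher and 8 lower, at 2548 to 2793 CPM in the controls and 2455 to 2557 with RANKL. Many of the followed genes are also active in blood cells: of 18 leukocyte markers 9, among them Cd3e, Lyz2 and Tyrobp, were nearest to no region. The other 9 had 5 higher and 1 lower, with a summed level of 107 to 120 CPM in the controls and 121 to 131 with RANKL. Ptprc, which encodes the common leukocyte antigen, had 0.61 ± 0.18 (adjusted p = 0.00279, edgeR quasi-likelihood). Adgre1 (1.20 ± 0.41), Cd163 (1.04 ± 0.39, groups overlapping), Csf1r (0.92 ± 0.26) and Laptm5 (0.82 ± 0.35) were also called higher. The marker called lower was Itgax (-0.66 ± 0.23), and S100a9 (0.99), Itgam (-0.12) and Coro1a (-0.17) were not called. The median log2 fold of the list was 0.82. Itgam alone had a mean of 47.2 CPM in the controls and 42.9 with RANKL, a large part of the summed level. Such rises were not confined to leukocyte markers: 6 of 9 mesenchyme markers were higher and 0 lower, and 5 of 7 endothelium markers higher and 2 lower. The part of any of these cell types in the gains at Pglyrp2, Nod2 and Cd14 was not tested.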

How the data were processed

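H3K27ac and ONECUT2 were profiled by ChIPmentation, in which the Tn5 transposase adds adapters to antibody-bound chromatin, in 3 control and 3 RANKL libraries each. The authors deposited raw read counts for 55050 regions of 2000 bp. For ONECUT2 the authors deposited log2 mean reads, log2 folds, p-values and an FDR per site, per the file headers, limited to sites with an FDR of up to 0.0496, made with DiffBind. That tool and the mm10 build are named in the submitters' processing notes. Not given in the sources used here are how reads were aligned, how peaks were called and which DiffBind version ran. Inputs and ONECUT2 values of single libraries were not analysed here, nor were the 6 columns of a second H3K27ac table, headed as normalised. Coordinates are as deposited, and whether a start counts from 0 is not stated.

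Each region took the gene whose span, out of 21900 protein-coding spans in a RefSeq table, lay nearest within 100 kb, which placed 86.7% of regions at 15962 genes. Where several spans were equally near, the larger overlap, then the nearer start site, decided. A gene that was nearest to no region can therefore still overlap one. The table has no exons. The test was edgeR's quasi-likelihood test (version 4.0.16 on R 4.3.3) with TMM and filterByExpr, which kept 54765 regions and 15895 genes, with Benjamini-Hochberg adjusted p under 0.05. A region was set against the pooled fold of its gene's regions with diffSpliceDGE over 41342 regions. That pooled fold comes from the region fit and can differ from the fold of the gene's sum. CPM are TMM-scaled.

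The tests were run on simulated data with known changes, planted only in features above the median signal. For the test of a region against its gene, only genes with at least 3 regions received changes. Of changes of 1.5-fold and 3-fold, the region test found 53% and 100%, the gene test 99% and 100%, and the test of a region against its gene 19% and 96%. These shares do not cover weaker regions, such as most of those of Tlr4 and Tlr5. The last test returned 3-fold changes at a median of 0.77 of their log2 size, where the pooled fold includes the changed region itself. It called 56 regions without a planted change, against 4 and 14 features for the others. The 56 include any regions that share a gene with a changed one, whose difference from the pooled fold is real. How many of the 56 were of this kind was not counted. Replicates of a group differed by more than sampling noise (chi-square over its degrees of freedom between 1.79 and 2.06), and none was counted as a repeat. The labels number the experiments in both arms, which pairs same-numbered libraries, although their deviations from the group means correlated at only 0.014, -0.027 and -0.007. Alternatives were library size only, median-ratio size factors, no filter, a loess trend of signal removed, the experiment as a block, DESeq2 1.42.0, each library left out, and genes summed over regions within 10 kb or overlapping the span. The 10 genes and all lists were chosen with earlier results of these data known. All 10 genes are named, with values per library for each called region. Of the pathway lists, Myd88, Ticam1, Ripk2, Ly96, Tlr6, Tlr9, Pglyrp3, Pglyrp4 and genes called with a log2 fold of at least 1 in size are named. Further marker lists had 6 of 9 higher and 0 lower (mesenchyme), 5 of 7 and 2 (endothelium) and 2 of 5 and 0 (Paneth cells). Of all genes 25.0% were higher and 26.9% lower. Of the list entries 2 had no match.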

Additional observations from a re-analysis of the deposited data

How the results depend on the processing

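Both Pglyrp2 regions, the 3 called Tlr2 regions, the Tlr4 region at the gene end, the inner Nod1 region and the Cd14 region kept their direction and call in all 12 alternatives. Of these, the folds at Tlr4 and Cd14 (trend removed, -0.32 and 0.68) and at Nod1 (without RANKL replicate 3, -0.76) moved by over 1.5 times. The count of member regions called lower was 5 with library size only, 4 with the signal trend removed, and 5 to 8 with a library left out. The count of genes called lower was 2 with library size only, 3 with regions within 10 kb, 3 with regions overlapping the span, 0 with the trend removed, and 0 to 1 with a library left out (0 without control replicate 2). With the replicate block, 5 member regions were higher and 6 lower, since the start-site regions of Pglyrp1 and Tlr3 were lost, and the block changed no other call of a member region or gene. The causes were not tested.

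Changes of sign touched only values that were not called. With the trend removed, Tlr1 was 0.0088 and Tlr2 0.091 as genes, the Tlr5 regions inside the gene and farthest from it -0.17 and -0.15, the Tlr2 start site 0.19, the farthest Tlr4 region -0.19 and the farthest Tlr1 region -0.12. With library size only, the Tlr2 start site was 0.036, the Tlr4 region 44.2 kb away 0.058 and the Tlr1 region inside the gene 0.084, the latter 0.0022 with DESeq2. Tlr1 was 0.20 over regions overlapping the span. With a library left out, ranges that crossed 0 were -0.047 to 0.031 for Tlr2 as a gene, -0.12 to 0.026 at its start site, -0.16 to 0.23 and -0.051 to 0.34 at the Tlr5 regions named above, -0.68 to 0.22, -0.24 to 0.10 and -0.21 to 0.32 at the Tlr4 regions 9.92, 44.2 and 76.2 kb away, and -0.071 to 0.094 and -0.14 to 0.22 at the farthest and the inner Tlr1 region.

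RANKL libraries had fewer reads than the controls, and the Tlr4 region 9.92 kb away rested on 1 read in RANKL replicate 1. With 3 libraries per arm from 1 mouse line, the smaller called changes at Pglyrp1, Tlr3, Nod2, Tlr1 and the Nod1 start site each lost their call when 1 or another library was left out.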
